A study of Homo sapiens with 12 samples.

Results

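EMILIN2, GNG4, L3MBTL4, NELL2 and POLR2A are the 5 genes described here, of 14438 in a count table of HEK293T cells that carry mutant EZH2. They were chosen by the adjusted p of their difference in counts between 2 gain-of-function (GOF) mutants, EZH2 Y641F and EZH2 A677G, so that difference is given below as a description and not as a test. RNA was sequenced from 4 lines of HEK293T, an embryonic kidney cell line transformed with adenovirus DNA and the SV40 large T antigen, with 3 replicates per line. Each line was infected with lentivirus and selected with blasticidin, and carried EZH2 WT, EZH2 Y641F, EZH2 A677G or EZH2 H689A/F667I, the loss-of-function (LOF) double mutant. All lines kept their own EZH2 gene, and EZH2 WT was the control for the mutants. The cells of a line were taken from selection as a monoclonal population, so the mutation and the line that carried it cannot be told apart. The labels do not say that the replicates came from separate cultures, and p-values then measure only the spread between these samples.

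EZH2 is the catalytic subunit of Polycomb repressive complex 2, which methylates lysine 27 of histone H3 and holds genes with CG-rich promoters in a repressed state. Y641F and A677G both lie in its catalytic SET domain and both raise trimethylation of that lysine, with different substrate preferences. Y641F favours the dimethylated lysine and is poor on the unmethylated one, while A677G uses all methylation states. The 5 genes belong to separate pathways. EMILIN2 is a glycoprotein of the extracellular matrix and NELL2 is a secreted ligand of the ROBO3 receptor. GNG4 is a gamma subunit of heterotrimeric G proteins. L3MBTL4 carries MBT repeats, which bind methylated histone lysines, and POLR2A is the largest subunit of RNA polymerase II.

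The 5 genes lie on 4 chromosomes of GRCh38. EMILIN2 (ENSG00000132205.11, chr18:2847006-2916003, plus strand) and L3MBTL4 (ENSG00000154655.16, chr18:5954706-6415237, minus strand) share chromosome 18. GNG4 (ENSG00000168243.11) is at chr1:235547685-235650754 on the minus strand, NELL2 (ENSG00000184613.11) at chr12:44508275-44921848 on the minus strand and POLR2A (ENSG00000181222.19) at chr17:7484366-7514616 on the plus strand. All 5 are protein-coding.

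Promoters are shown because PRC2 is known for its association with CG-rich promoters. RefSeq (GRCh38.p14) gave a window of 250 bases before to 50 bases after the start for 4 of the 5 genes. Each is printed 5′ to 3′ on the strand of its gene, with every CG in capitals.
EMILIN2, chr18:2846756-2847055, plus strand: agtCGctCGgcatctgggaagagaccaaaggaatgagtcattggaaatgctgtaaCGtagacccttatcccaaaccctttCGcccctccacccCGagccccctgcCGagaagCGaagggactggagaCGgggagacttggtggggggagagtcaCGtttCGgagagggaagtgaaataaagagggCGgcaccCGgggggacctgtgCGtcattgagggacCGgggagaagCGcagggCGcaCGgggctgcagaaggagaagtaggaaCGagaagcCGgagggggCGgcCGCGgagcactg
GNG4, chr1:235650559-235650858, minus strand: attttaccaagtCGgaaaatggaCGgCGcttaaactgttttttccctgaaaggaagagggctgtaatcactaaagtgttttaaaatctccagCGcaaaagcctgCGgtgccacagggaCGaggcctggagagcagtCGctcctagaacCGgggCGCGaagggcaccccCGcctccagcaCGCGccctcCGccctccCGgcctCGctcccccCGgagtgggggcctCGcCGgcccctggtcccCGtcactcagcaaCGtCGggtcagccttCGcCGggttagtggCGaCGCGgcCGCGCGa
L3MBTL4, chr18:6415210-6415509, minus strand: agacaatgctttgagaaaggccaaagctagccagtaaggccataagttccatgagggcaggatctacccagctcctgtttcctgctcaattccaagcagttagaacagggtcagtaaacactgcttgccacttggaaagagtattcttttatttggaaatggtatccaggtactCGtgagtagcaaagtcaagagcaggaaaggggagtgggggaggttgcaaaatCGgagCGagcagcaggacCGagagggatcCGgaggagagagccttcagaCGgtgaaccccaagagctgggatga
POLR2A, chr17:7484116-7484415, plus strand: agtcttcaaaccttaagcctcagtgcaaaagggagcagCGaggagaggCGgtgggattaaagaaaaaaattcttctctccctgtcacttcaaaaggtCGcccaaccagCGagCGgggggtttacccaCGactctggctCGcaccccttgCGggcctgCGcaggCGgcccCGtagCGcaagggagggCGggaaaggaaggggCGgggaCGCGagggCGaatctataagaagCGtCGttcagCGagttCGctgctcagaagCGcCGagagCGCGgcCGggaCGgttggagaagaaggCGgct
The motif searched was CG, which reads the same on both strands, and 96.0% of 35116 RefSeq windows held it, with a median of 14 per window. GNG4 held 30 CG, POLR2A 28 and EMILIN2 22, which 22.4%, 26.2% and 37.7% of all windows reached or exceeded. The window of L3MBTL4 nearest to its annotated start held 6 CG, which 66.3% of windows reached. RefSeq gave 2 other starts of L3MBTL4. The window of the start 326 bases from the annotated one held 35 CG, which 14.1% of windows reached. The window of the start 47554 bases away held 4 CG, which 75.5% reached. The printed window alone therefore does not show how CG-rich the promoter region of L3MBTL4 is. Chromatin at these windows was not analysed here.

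Counts per library summed to between 32137700 and 44562413, and levels are given as CPM, counts scaled to the size of the library and by TMM. In a fit of all 12 libraries with edgeR's quasi-likelihood test, 12 of 14263 tested genes (0.0841%) had a Benjamini-Hochberg adjusted p under 0.05 between EZH2 Y641F and EZH2 A677G, and all 5 genes were among them by the way they were chosen. That fit left out 175 genes at 0 in all 3 replicates of EZH2 A677G (134 genes) or of EZH2 H689A/F667I (100 genes). With these kept, 178 of 14438 genes were called, 163 of them higher in EZH2 Y641F, and 134 of the 178 were the genes at 0 throughout EZH2 A677G. All 5 genes stayed among the calls. L3MBTL4 was the last of the 12, at an adjusted p of 0.0444, and the next gene outside was BASP1, at 0.0579. BASP1 went the other way, with a mean of 18.9 ± 0.958 CPM in EZH2 A677G against 14.6 ± 1.81 CPM in EZH2 Y641F (SD, n = 3). The other 7 genes inside were EZH2 itself, NEFM, MIR17HG, FAT3, CYFIP2 and the ribosomal RNA genes RNA45S5 and RNA28S5. Of the 12 genes, 10 were higher in EZH2 Y641F, all 5 described here among them. The 2 that were lower were FAT3 and CYFIP2, with log2 differences of -0.34 and -0.24. EZH2, whose count sums the introduced and the cells' own transcripts, ranged from 154 to 163 CPM in EZH2 WT, from 209 to 228 in EZH2 Y641F, from 165 to 182 in EZH2 A677G and from 206 to 210 in EZH2 H689A/F667I. The 2 ribosomal RNA genes took between 0.0969% and 0.139% of the counts of EZH2 Y641F and between 0.0669% and 0.0708% of those of EZH2 A677G. Their share was 0.0663% to 0.0864% in EZH2 WT and 0.0601% to 0.0973% in EZH2 H689A/F667I, which overlapped EZH2 Y641F. EZH2 and the ribosomal RNA genes moved with the difference that chose the 5 genes, and their part in it was not tested.

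**Figure D1:**
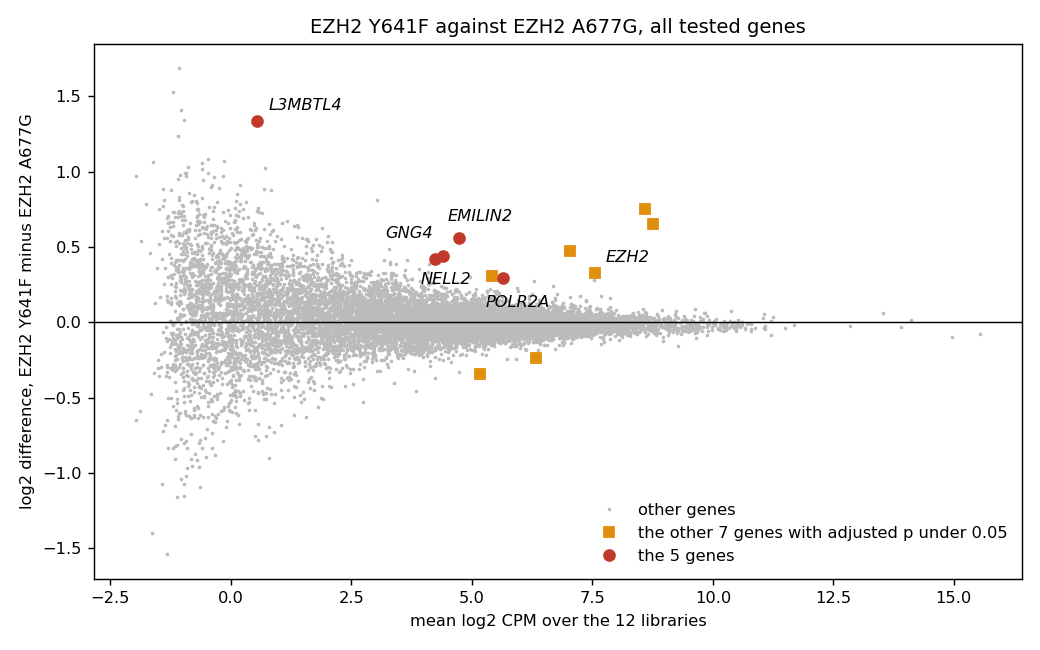
Log2 difference between EZH2 Y641F and EZH2 A677G (y axis) against the mean log2 CPM over the 12 libraries (x axis), 1 point per tested gene. The 5 genes are red and the other 7 genes with an adjusted p under 0.05 are orange squares. L3MBTL4 lies at the low end of the range of levels, at a mean log2 CPM of 0.55, while the other 4 red points lie between 4.24 and 5.65.

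EMILIN2 was high in EZH2 Y641F and overlapped between the other 3 lines. Its replicates 1, 2 and 3 stood at 40.0, 35.8 and 35.0 CPM in EZH2 Y641F, against 27.9, 22.8 and 24.3 in EZH2 A677G. In EZH2 WT they stood at 21.3, 25.7 and 23.8 CPM, and in EZH2 H689A/F667I at 21.9, 24.0 and 22.1. Every EZH2 Y641F library lay above every other library, and the ranges of the other 3 lines overlapped. The means were 37.0 ± 2.64 CPM in EZH2 Y641F, 25.0 ± 2.61 in EZH2 A677G, 23.6 ± 2.24 in EZH2 WT and 22.7 ± 1.19 in EZH2 H689A/F667I (SD, n = 3). On the log2 scale EZH2 Y641F was above EZH2 A677G by 0.56 (SE 0.0732), or 1.48-fold. In bulk RNA, fewer cells that express a gene and less of its RNA per cell cannot be told apart. Against EZH2 WT, EZH2 Y641F differed by 0.65 (SE 0.0742) and EZH2 A677G by 0.08 (SE 0.0759).

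NELL2 was lower in both GOF lines than in EZH2 WT, and lower in EZH2 A677G than in EZH2 Y641F. Its replicates read 12.5, 13.5 and 14.8 CPM in EZH2 A677G and 20.3, 17.2 and 17.0 CPM in EZH2 Y641F. EZH2 WT read 22.9, 21.6 and 21.7 CPM, and EZH2 H689A/F667I read 23.7, 21.6 and 25.2. No EZH2 A677G library reached an EZH2 Y641F library and no EZH2 Y641F library reached an EZH2 WT library, a staircase that 87 of 14263 genes (0.610%) had. The step between the GOF lines was part of the choice of NELL2, so that share does not measure how rare its pattern is. The means were 13.6 ± 1.14 CPM in EZH2 A677G, 18.2 ± 1.88 in EZH2 Y641F, 22.0 ± 0.718 in EZH2 WT and 23.5 ± 1.79 in EZH2 H689A/F667I (SD, n = 3), and the last pair overlapped. Against EZH2 WT the log2 difference was -0.70 for EZH2 A677G and -0.28 for EZH2 Y641F, 0.42 (SE 0.0827) apart.

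GNG4 lay a little above EZH2 WT in EZH2 Y641F and below it in EZH2 A677G. EZH2 Y641F gave 26.9, 22.5 and 23.9 CPM in its 3 libraries and EZH2 A677G gave 16.5, 17.5 and 20.2. The libraries of EZH2 WT gave 22.9, 21.3 and 21.8 CPM, and those of EZH2 H689A/F667I 20.3, 21.0 and 19.7. In order of their means the lines were EZH2 Y641F (24.4 ± 2.25 CPM), EZH2 WT (22.0 ± 0.831), EZH2 H689A/F667I (20.4 ± 0.638) and EZH2 A677G (18.1 ± 1.94; SD, n = 3). EZH2 Y641F overlapped EZH2 WT, and EZH2 A677G overlapped EZH2 H689A/F667I. The GOF lines differed by 0.44 on the log2 scale (SE 0.0769), made of 0.15 (SE 0.0764) above EZH2 WT in EZH2 Y641F and -0.28 (SE 0.0781) in EZH2 A677G.

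L3MBTL4 was the gene with the widest relative gap and the lowest counts of the 5. EZH2 A677G held 32, 16 and 26 counts, or 0.718, 0.393 and 0.713 CPM. EZH2 Y641F held 78, 53 and 58 counts, or 1.85, 1.39 and 1.37 CPM. In EZH2 WT the level was 2.35, 2.10 and 1.39 CPM, and in EZH2 H689A/F667I it was 2.60, 2.22 and 1.99 CPM. All EZH2 A677G libraries lay below the 9 others, while EZH2 Y641F overlapped EZH2 WT and lay below EZH2 H689A/F667I. The means were 0.608 ± 0.186 CPM in EZH2 A677G, 1.54 ± 0.273 in EZH2 Y641F, 1.95 ± 0.501 in EZH2 WT and 2.27 ± 0.309 in EZH2 H689A/F667I (SD, n = 3). The log2 difference between the GOF lines was 1.34 (SE 0.285), or 2.53-fold. Against EZH2 WT the log2 difference was -1.68 (SE 0.281) in EZH2 A677G and -0.34 (SE 0.250) in EZH2 Y641F.

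POLR2A had the smallest difference between the GOF lines and stood on opposite sides of EZH2 WT in them. Its level in EZH2 Y641F was 58.2, 53.7 and 55.3 CPM, and in EZH2 A677G 41.1, 48.7 and 46.9 CPM. EZH2 WT lay between them at 50.4, 49.0 and 50.9 CPM, and EZH2 H689A/F667I covered the same level at 52.0, 47.9 and 49.8 CPM. Every EZH2 Y641F library was above and every EZH2 A677G library below the range of EZH2 WT, with the narrower margin below it, from 48.7 to 49.0 CPM. Of all tested genes, 5 had this order and 8 had its reverse. The order includes the gap between the GOF lines that chose POLR2A, so these counts do not measure how rare its pattern is. Means were 55.7 ± 2.27 CPM in EZH2 Y641F, 50.1 ± 0.999 in EZH2 WT, 49.9 ± 2.06 in EZH2 H689A/F667I and 45.6 ± 3.98 in EZH2 A677G (SD, n = 3). The GOF lines were 0.29 apart on the log2 scale (SE 0.0545), with 0.15 (SE 0.0545) above EZH2 WT in EZH2 Y641F and -0.14 (SE 0.0552) in EZH2 A677G. Without EZH2 A677G replicate 1 the last value was -0.067.

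**Figure D2:**
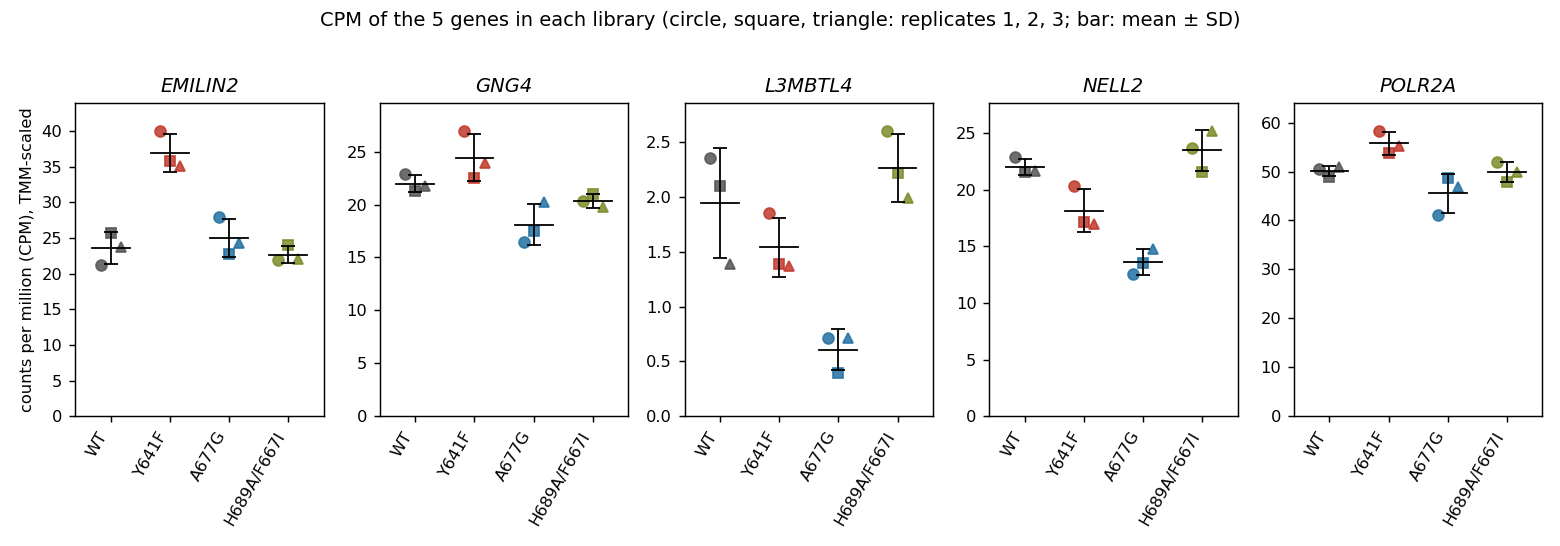
TMM-scaled CPM (y axis, from 0) of the 5 genes in each of the 12 libraries, by line (x axis). Circles, squares and triangles are replicates 1, 2 and 3, and bars are mean ± SD of 3. EMILIN2 stands out in EZH2 Y641F at 37.0 CPM, L3MBTL4 and NELL2 are lowest in EZH2 A677G at 0.608 and 13.6 CPM, and the circle of EZH2 Y641F is the highest of its line in all 5 panels.

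All 5 genes separated the GOF lines without overlap between libraries, by choice, where 10.2% of tested genes did. EZH2 Y641F did not overlap EZH2 WT in 3 of the 5 (EMILIN2, NELL2 and POLR2A), against 20.9% of tested genes. EZH2 A677G did not overlap EZH2 WT in 4 of the 5 (all but EMILIN2), against 27.2% of tested genes. Both counts against EZH2 WT use the GOF libraries that chose the 5 genes, so an excess over all tested genes is favoured by the choice. Replicate 1 of EZH2 Y641F stood apart from the other libraries of its line, at 5.60 on the first principal component against 17.7 and 17.1. On that component EZH2 A677G lay from 15.2 to 17.1, EZH2 WT from -15.0 to -13.8 and EZH2 H689A/F667I from -16.3 to -14.2. Replicate 1 of EZH2 Y641F was the highest of its line for each of the 5 genes, as it was for 37.5% of all tested genes. Without it EMILIN2 was the 1 gene of the 5 that stayed past the threshold, and the log2 differences between the GOF lines were 0.50 for EMILIN2, 0.36 for GNG4, 1.18 for L3MBTL4, 0.33 for NELL2 and 0.26 for POLR2A. Without EZH2 A677G replicate 1 EMILIN2 was again the 1 gene left, and without EZH2 A677G replicate 2 EMILIN2 and POLR2A were left. EZH2 A677G replicate 1 held the lowest level of its line for GNG4, NELL2 and POLR2A. In a fit of the GOF lines alone 3 of the 5 stayed past the threshold, EMILIN2, GNG4 and POLR2A.

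The mean of both GOF lines was then compared with EZH2 WT. This contrast does not take the difference between the GOF lines. It does use the GOF libraries, and the estimate of spread, that chose the 5 genes. A gene chosen because either GOF line moved can shift this mean too, so these p-values are not independent of the choice. Of all tested genes 11.1% passed this test, 468 higher and 1111 lower. Of the 5 genes 3 passed, a count that the choice may favour and that does not show a shift shared by both GOF lines. NELL2 fell by 0.49 on the log2 scale (SE 0.0695, 95% interval -0.63 to -0.35; adjusted p = 2.78e-06, edgeR's quasi-likelihood test). L3MBTL4 fell by 1.01 (SE 0.224, interval -1.47 to -0.56; adjusted p = 0.00158 in the same fit with edgeR). That mean was made up of -1.68 in EZH2 A677G and -0.34 (SE 0.250) in EZH2 Y641F. EMILIN2 rose by 0.37 (SE 0.0659, interval 0.23 to 0.50; adjusted p = 0.000109 in the same fit with edgeR), a mean made up of 0.65 in EZH2 Y641F and 0.08 in EZH2 A677G. GNG4 differed by -0.07 (interval -0.20 to 0.07; edgeR adjusted p = 0.634) and POLR2A by 0.01 (interval -0.09 to 0.10; edgeR adjusted p = 0.946), their GOF lines lying on either side of EZH2 WT. The 3 calls held when any of the 12 libraries was left out.

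The LOF mutant did not differ detectably from EZH2 WT in any of the 5 genes. In this comparison 43 tested genes (0.301%) passed, and 1184 had an unadjusted p under 0.05. The adjusted p from edgeR was 0.893 for EMILIN2, 0.773 for GNG4, 0.869 for L3MBTL4, 0.828 for NELL2 and 0.988 for POLR2A, and 0 of the 5 had an unadjusted p under 0.05. DESeq2 and edgeR's exact test also called 0 of the 5. The 95% intervals of the log2 difference ran from -0.21 to 0.10 for EMILIN2, from -0.27 to 0.05 for GNG4, from -0.28 to 0.71 for L3MBTL4, from -0.07 to 0.25 for NELL2 and from -0.12 to 0.11 for POLR2A. GNG4 was the 1 gene of the 5 whose libraries did not overlap between the LOF mutant and EZH2 WT, the LOF mutant being lower, where 15% of tested genes did not overlap. Both comparisons with EZH2 WT share its 3 libraries.

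**Figure D3:**
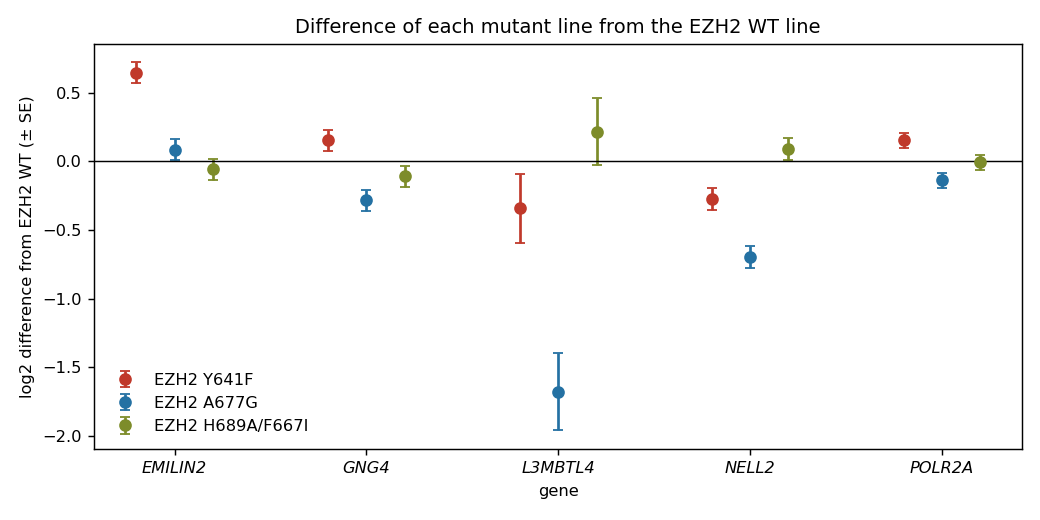
Log2 difference of each mutant line from EZH2 WT (y axis; points with ± SE of the fit, 3 libraries per line) for the 5 genes (x axis). The LOF mutant lies within 0.22 of EZH2 WT for all 5. EZH2 Y641F reaches 0.65 for EMILIN2, and EZH2 A677G reaches -1.68 for L3MBTL4.

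Lists of genes from the same families and pathways were set beside the 5. Each list was drawn up around 1 of the 5 genes, which passes between the GOF lines by choice. Over all tested genes 0.0841% passed there. Lists this short could hardly show another call, so its absence is no result about a family. In the EMILIN family and the elastic fibre, 16 genes of microfibrils, fibulins and crosslinking enzymes were tested. Between the GOF lines EMILIN2 was the 1 gene to pass, and the other 15 had log2 differences from -0.03 to 0.41. Against EZH2 WT the mean of the GOF lines was higher in 3 of the 16 and lower in 6. Over all tested genes 11.1% passed this comparison, 468 higher and 1111 lower, which is the share to set beside each list. Where a list holds a gene of the 5, the result of that gene is not independent of its choice. EFEMP1, a fibulin, fell by 1.03 on the log2 scale (edgeR adjusted p = 2.74e-08). FBLN5, a fibulin needed to assemble elastic fibres, fell by 0.86, EMILIN3 fell by 0.42 and FBN2, a fibrillin, fell by 0.25. EMILIN1, a family member found in elastic fibres, had a log2 difference of -0.02 (SE 0.184) against EZH2 WT and 0.09 (SE 0.209) between the GOF lines. EMILIN2, LTBP1, a binder of latent TGF-beta, at 0.23 and FBLN1 at 0.20 were the 3 that rose.

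For NELL2 the list held NELL and ROBO guidance genes, of which 9 were tested. NELL2 was the 1 that passed between the GOF lines. Against EZH2 WT, NELL1, the paralog of NELL2, fell by 1.40 on the log2 scale (SE 0.240; edgeR adjusted p = 5.74e-05) and SLIT3, a ROBO ligand, fell by 1.27, while SLIT2 rose by 0.18 and the receptor ROBO1 rose by 0.15. NELL1 stood at -1.50 in EZH2 A677G and -1.29 in EZH2 Y641F against EZH2 WT. ROBO3, the receptor that NELL2 binds, had a log2 difference of -0.15 (SE 0.106) and did not pass. The list counted 2 higher and 3 lower in all.

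Among 13 G protein beta and gamma subunits GNG4 was the 1 that passed between the GOF lines. GNG2, another gamma subunit, had a larger difference between them, 0.63 (SE 0.184), and an adjusted p of 0.328 (edgeR). Against EZH2 WT 3 gamma subunits fell, GNG2 by 0.90 (edgeR adjusted p = 2.96e-05), GNG11 by 0.92 and GNG12 by 0.16, and 0 of the 13 rose. GNB1, a beta subunit, fell by 0.20 in the LOF mutant (edgeR adjusted p = 0.0121) and was the 1 gene of the 6 family and pathway lists to pass there.

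Of the 9 MBT domain genes tested, L3MBTL4 was the 1 that passed between the GOF lines, by choice. It was also the 1 that passed in the mean of the GOF lines against EZH2 WT, beside 11.1% of all tested genes, a result not independent of its choice. The other 8, among them the Polycomb group proteins SCMH1, SFMBT1 and L3MBTL2, had log2 differences between the GOF lines from -0.26 to 0.06 and differences from EZH2 WT from -0.10 to 0.12. L3MBTL3, its close relative, had 0.02 (SE 0.0960) between the GOF lines. L3MBTL4 left the calls between the GOF lines with library totals, with only these lines in the fit and in 9 of the 12 fits that left out 1 library, and DESeq2 gave it no adjusted p. The 3 fits that kept it were those without EZH2 Y641F replicate 2 or 3 or EZH2 WT replicate 3.

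POLR2A was the 1 subunit of its enzyme past the threshold between the GOF lines. The other 11 RNA polymerase II subunits had log2 differences between the GOF lines from -0.13 to 0.04, and their median was -0.01. POLR2B, the second largest subunit, stood at 0.00 (SE 0.0350), against 0.29 for POLR2A. Against EZH2 WT, and in the LOF mutant, 0 of the 12 subunits passed, with differences between -0.05 and 0.08 for the mean of the GOF lines. The 15 kinases, cyclins and phosphatases of the carboxy-terminal domain of POLR2A gave 0 calls in all 3 comparisons, and ranged from -0.07 to 0.33 between the GOF lines. Without the 5 genes, the median log2 difference between the GOF lines was 0.09 in the elastic fibre list, 0.01 in the guidance list, 0.04 in the G protein list, -0.02 in the MBT list and -0.02 in the list of kinases and phosphatases, beside 0.00 over all tested genes. For the mean of the GOF lines against EZH2 WT these medians were -0.02, -0.04, -0.05, 0.06 and 0.01, beside 0.00 over all tested genes, and the median of the full elastic fibre list, -0.02, became 0.01 with the GC trend removed. At an unadjusted threshold, 985 genes passed between the GOF lines and 3188 in the mean of the GOF lines against EZH2 WT.

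**Figure D4:**
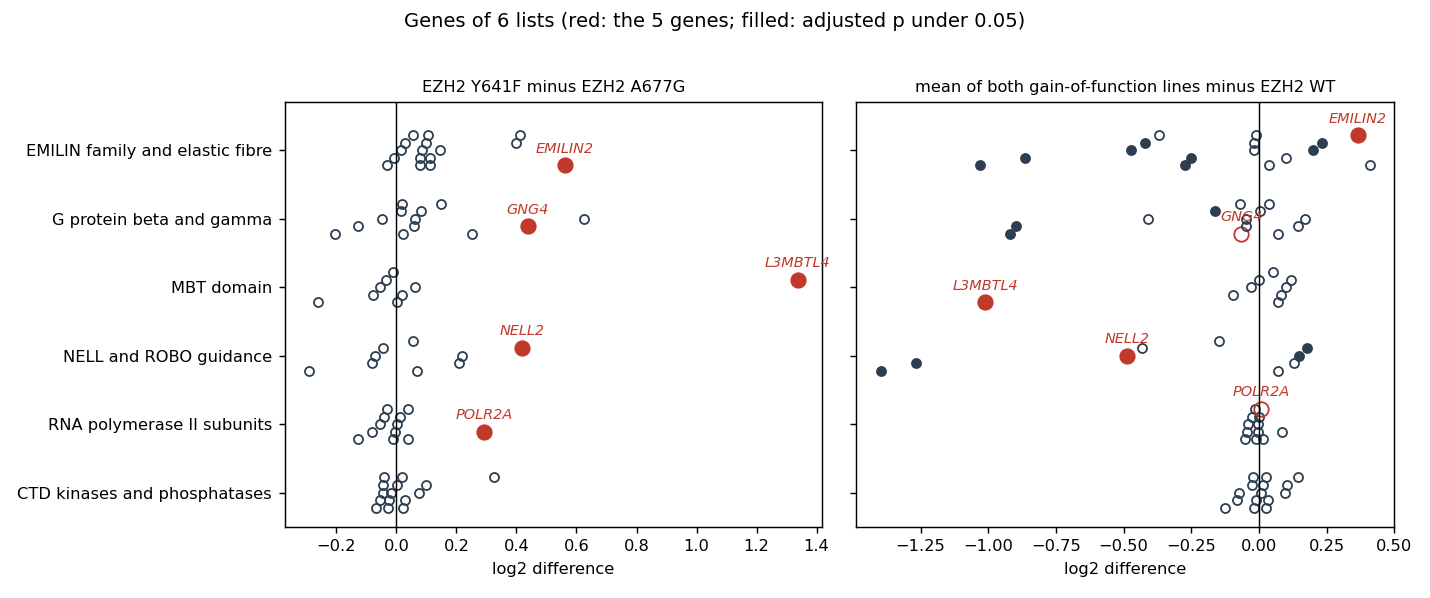
Log2 differences (x axis) of the tested genes of 6 lists (y axis, 1 row per list, points offset for legibility), between the GOF lines on the left and for their mean against EZH2 WT on the right. Red points are the 5 genes, filled points have an adjusted p under 0.05. On the left the 5 red points are the filled ones, and on the right the elastic fibre list holds 3 filled points above 0 and 6 below.

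No gene near the 5 passed the test between the GOF lines, which 12 of all 14263 tested genes (0.0841%) passed. Within 1 Mb of the starts of the 5 lay 8 tested genes for EMILIN2, 14 for GNG4, 4 for L3MBTL4, 4 for NELL2 and 66 for POLR2A. Of these 0 passed between the GOF lines, while 1, 0, 1, 0 and 2 had an unadjusted p under 0.05, as 985 of all tested genes had. At that share of calls, 0 among so few neighbours does not show whether a difference is local. ZBTB4, which starts 0.103 kb from POLR2A on the other strand, had a log2 difference between the GOF lines of -0.01 (SE 0.0752). On the other side of POLR2A the nearest was TNFSF13, at -0.20 (SE 0.249). The nearest to EMILIN2 were SMCHD1 at -0.08 (SE 0.0482) and LPIN2 at -0.01, and those nearest to GNG4 were B3GALNT2 at 0.01 and LYST at 0.08. L3MBTL4 had TMEM200C at -0.17 and ARHGAP28 at 0.05. NELL2 had ANO6 at -0.02 on 1 side and no tested gene within 1 Mb on the other. EMILIN2 and L3MBTL4 start 3.57 Mb apart, and the 8 tested genes between them ranged from -0.17 to 0.17 with 0 calls.

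**Figure D5:**
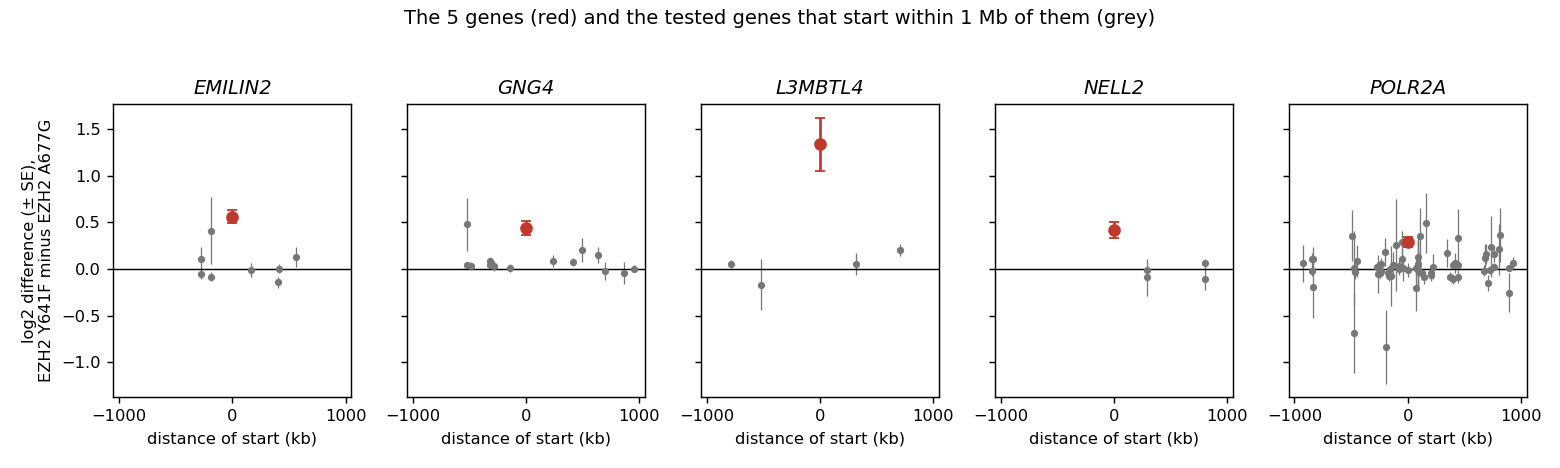
Log2 difference between EZH2 Y641F and EZH2 A677G (y axis, ± SE) of the 5 genes, in red, and of the tested genes around them, in grey, by the distance between starts in kb (x axis). None of the grey points passed the test, and the range around POLR2A, from -0.83 to 0.49, is that of 66 genes of all levels.

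In the mean of both GOF lines against EZH2 WT 7 of these 96 neighbours passed (7.29%), beside 11.1% of all tested genes. They were LYST near GNG4 at -0.18, TMEM200C at -0.83 and LAMA1 at -0.21 near L3MBTL4, and KCTD11 at 0.45, TMEM256 at 0.21, EFNB3 at -0.47 and PER1 at -0.20 near POLR2A. EMILIN2 and NELL2 had 0 such neighbours.

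The genes with the most similar profile were taken by Pearson's r of log2 CPM over the 12 libraries, among genes whose mean log2 CPM reached 1. These r share libraries and depth, include the 6 GOF libraries whose difference chose the 5 genes, were the highest of 12039 or 12040 and are a description. For NELL2 they were GNG2 (0.956), SEL1L3 (0.954) and ALDH1A2 (0.953), each lower in both GOF lines and more so in EZH2 A677G, with GNG2 at -0.58 and -1.21. For L3MBTL4 they were TMEM144 (0.951), TNS1 (0.931) and SREBF1 (0.930), all lowest in EZH2 A677G. For EMILIN2 they were SPECC1 (0.891), ID4 (0.885) and CCNL2 (0.882), and their differences between the GOF lines, at 0.12 to 0.17, were smaller than the 0.56 of EMILIN2. GNG4 was most similar to SYCP2L (0.896), ACADM (0.880) and POLR2A (0.864), and POLR2A to GNG4 (0.864), ZSCAN12 (0.849) and TYMP (0.841). GNG4 and POLR2A appear in each other's list, which the choice of both by the same difference between the GOF lines favours.

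Markers of the cell line and of other cells were counted in the same table. All 7 markers of HEK293T were in the table. PAX2 was left out of the tests because each EZH2 A677G library had 0 counts of it, against 12 to 16 in EZH2 WT, 16 to 25 in EZH2 Y641F and 13 to 18 in EZH2 H689A/F667I. It is among the genes at 0 throughout EZH2 A677G, and the source of these 0 was not tested. The summed CPM of the other 6 was 617 to 643 in EZH2 WT, 472 to 524 in EZH2 Y641F, 438 to 478 in EZH2 A677G and 565 to 570 in EZH2 H689A/F667I. Of these 6, 3 fell in the mean of the GOF lines (NEFL, NEFM and VIM) and 2 in the LOF mutant, where 11.1% and 0.301% of all tested genes passed. NEFM was 1 of the 12 genes past the threshold between the GOF lines, at 0.47. Of 10 markers of blood, endothelium and fibroblasts, 2 were in the table, COL1A1 and LUM. Their summed CPM was 7.67 to 13.0 in EZH2 Y641F, 6.69 to 7.61 in EZH2 A677G, 8.33 to 8.93 in EZH2 WT and 8.05 to 10.9 in EZH2 H689A/F667I, and 0 of the 2 passed in any of the 3 comparisons. Between the GOF lines LUM differed by 0.88 on the log2 scale (SE 0.252; edgeR adjusted p = 0.307, unadjusted 0.00129) and COL1A1 by 0.33 (SE 0.145; edgeR adjusted p = 0.660, unadjusted 0.0296), both higher in EZH2 Y641F like the 5 genes. The part of either list in the differences of the 5 genes was not tested.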

How the data were processed

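Libraries were made with the TruSeq Stranded mRNA kit and sequenced on an Illumina HiSeq. According to the study's methods, reads were trimmed with Trim Galore 0.6.5, aligned to GRCh38 with STAR 2.7.9a and quantified with Salmon 1.2.0 against Gencode. The authors deposited whole-number counts per gene symbol, without normalization. The step from transcript estimates to these counts, and the filter behind the 14438 genes, are not given in the sources used here.

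The 12 samples (3 per line) were fitted together in edgeR 4.0.16 (R 4.3.3, limma 3.58.1), with TMM factors, a coefficient for each of the 4 lines and the quasi-likelihood test. A line with 0 counts in its 3 replicates took 175 genes out of the fit, all through EZH2 A677G or EZH2 H689A/F667I. Benjamini-Hochberg adjustment ran over 14263 genes, at a threshold of 0.05. CPM were TMM-scaled, and a prior count of 2 was used for log2 CPM. The common biological coefficient of variation was 0.0471. Symbols were matched to GENCODE (13272 by name, 809 through older symbols, 357 unmatched). Depth sets the precision: L3MBTL4 rests on 16 to 96 counts per library, the other 4 genes on 540 to 2448.

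The 5 genes, the lists and the tests were chosen with earlier results of these data known. Besides the 5 genes and EZH2, the text names up to 4 passing genes of a list by adjusted p, close family members, the 3 most similar profiles, the nearest and passing neighbours and the genes on either side of the threshold. LTBP1, FBLN1, ROBO3 and the other genes past the threshold between the GOF lines were named after their values were seen. RefSeq windows were matched by symbol. Alternatives were DESeq2 1.42.0, edgeR's exact test, other scalings and filters, a replicate block, removal of the GC trend and each replicate left out. The code was tested on simulated data.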

Additional observations from a re-analysis of the deposited data

Results flagged for a closer look

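POLR2A was singled out because its libraries in the 2 GOF lines lay on opposite sides of EZH2 WT without overlap. Its log2 difference from EZH2 WT was 0.15 (SE 0.0545) in EZH2 Y641F, with all 3 libraries above every EZH2 WT library, and -0.14 (SE 0.0552) in EZH2 A677G, with all 3 below. The highest EZH2 A677G library, at 48.7 CPM, lay just under the lowest of EZH2 WT, at 49.0 CPM, and without EZH2 A677G replicate 1 the difference of that line was -0.067. GNG4 also lay on both sides of EZH2 WT, at 0.15 in EZH2 Y641F and -0.28 in EZH2 A677G, but overlapped it in EZH2 Y641F. Of 14263 tested genes, 5 had the order of POLR2A and 8 had its reverse. The order includes the gap between the GOF lines that chose POLR2A, so these counts do not measure how rare it is. The difference between the lines was not tested, since it chose the gene.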

How the results depend on the processing

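The log2 differences of the 5 genes between the GOF lines kept their direction under every alternative run. Some differences from EZH2 WT changed sign when a replicate was left out. POLR2A ran from -0.018 to 0.044 in the mean of the GOF lines and from -0.040 to 0.021 in the LOF mutant. EMILIN2 ran from -0.13 to 0.010 in the LOF mutant and from -0.0037 to 0.15 in EZH2 A677G. In the mean of the GOF lines against EZH2 WT, EMILIN2, L3MBTL4 and NELL2 stayed past the threshold throughout, and in the LOF mutant 0 of the 5 passed. L3MBTL4 came to an edgeR adjusted p of 0.0384 for that mean without EZH2 WT replicate 1. The fits for that mean reuse the GOF libraries that chose the 5 genes, so they are not independent of the choice. Between EZH2 Y641F and EZH2 A677G, genes called rose from 12 to 19 with DESeq2, to 19 with the GC trend removed and the replicate block, and to 178 with the genes at 0 in all replicates of a line kept, 134 of them at 0 throughout EZH2 A677G. With each replicate left out in turn this count ran from 8 to 57, the highest without EZH2 Y641F replicate 2, and that of the 5 genes from 1 to 5. Only the groups compared in the fit left 3 of the 5. DESeq2 gave L3MBTL4 no adjusted p there, since its own filter removed it. In the LOF mutant 146 genes were called by the exact test, 169 with the genes at 0 in a line kept and 86 with only the groups compared, and 11 to 65 with each replicate left out. Calls for the mean of the GOF lines ran from 1016 to 1869 with each replicate left out. Upper-quartile factors moved the higher calls from 468 of 1579 to 320 of 1593. Replicate numbers did not pair the samples, as correlations of same-numbered deviations lay between -0.0557 and 0.0501. With the replicate block 16 genes were called between the GOF lines, 1586 for their mean and 40 in the LOF mutant, and the calls of the 5 genes were the same. Low counts limit L3MBTL4, at 16 to 32 counts per library in EZH2 A677G, and it left the calls between the GOF lines in 9 of the 12 fits without 1 library.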
